A study of Mus musculus with 24 samples.

Results

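The claudins of intestinal epithelium were taken as 10 members of the claudin family, Cldn1, Cldn2, Cldn3, Cldn4, Cldn6, Cldn7, Cldn8, Cldn12, Cldn15 and Cldn23, listed by name and not by their values. They make up 10 of the 30142 mouse genes that had a transcript cluster naming 1 gene alone, and each member had 1 such cluster. RNA was hybridised to 24 single-colour Affymetrix arrays, 4 in each of 6 groups. Organoids grown from adult intestine were sampled at day 30 and at day 3 of culture, and organoids grown from intestine of stage E19 were sampled at the same days. Whole intestine came from adult mice and from P0 mice, the day of birth. All organoids were kept in ENR medium, which holds the growth factor EGF and the proteins Noggin and R-spondin, and no other agent or allele is labelled. Organoids are grown as epithelial cultures, while whole intestine also contains muscle, vessels and stroma. The organoid and tissue samples therefore differ in their mix of cells. Mesenchyme markers still read higher in fetal day 3 than in fetal day 30 organoids, as given below. The labels give no strain, segment of the gut or adult age, and they do not say whether replicates came from separate animals or cultures, so the p-values measure the spread between these arrays, which may be technical.

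Claudins are membrane proteins with 4 spans that meet between neighbouring epithelial cells and form the strands of the tight junction. Some of them build pores that let small ions or water pass between cells, and others tighten the seal, so the set of claudins in an epithelium sets how leaky it is and for which ions. In the mouse small intestine, Cldn2 and Cldn15 are the best known pores for sodium and other cations, and sodium that returns through them serves the uptake of glucose and other nutrients. Cldn3 and Cldn4 count as sealing claudins and as receptors of Clostridium perfringens enterotoxin, and Cldn7 sits along the lateral membrane, where it binds the adhesion protein Epcam.

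Values are log2 signals, so a difference of 1 is a 2-fold change, and a cluster's level cannot be set against that of another gene. The 5222 negative controls of each array, whose median ran from 3.84 to 4.61, marked the background, and a group whose mean lay at or below that median on each of its arrays is called not above background. This floor is lenient, as the upper quartile of the controls ran from 5.27 to 6.05. A value between the median and that quartile lies within the spread of the controls. The 11 epithelial marker genes, among them Epcam, Cdh1, Vil1 and Cdx2, were above background in all 6 groups, and their mean per array lay at 9.72 to 10.02 in organoids, 9.79 to 10.16 in adult tissue and 9.18 to 9.28 in P0 tissue. Arrays 1 to 3 of fetal day 3 organoids stood apart among the organoids: the mean level over 8 stomach genes was 6.40, 8.23 and 8.09 on these, and 4.88 on array 4, against 4.59 to 5.69 on the other organoid arrays. Results on that group are therefore given without arrays 2 and 3 as well where the value changes a call. P0 arrays 1 and 4, and then P0 arrays 2 and 3, were also left out as pairs. Stomach genes do not set these pairs apart, as their mean was 3.99 to 4.14 on the P0 arrays. The pairs part the P0 arrays by their level of Cldn1, itself a member, as given below.

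Over all 6 groups the 10 claudins varied by very unequal amounts. Cldn15 had the widest range of group means, 3.57 on the log2 scale, followed by Cldn3 with 2.67, Cldn8 with 2.27 and Cldn4 with 2.04. Ranges of 2 or more were found for 1275 genes, 4.23% of those measured. Cldn7 and Cldn12 had the narrowest ranges of the 10, 0.40 each, which exceeded those of 45.3% and 45.7% of all genes. The plot of the 10 claudins by group shows each array.

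**Figure D1:**
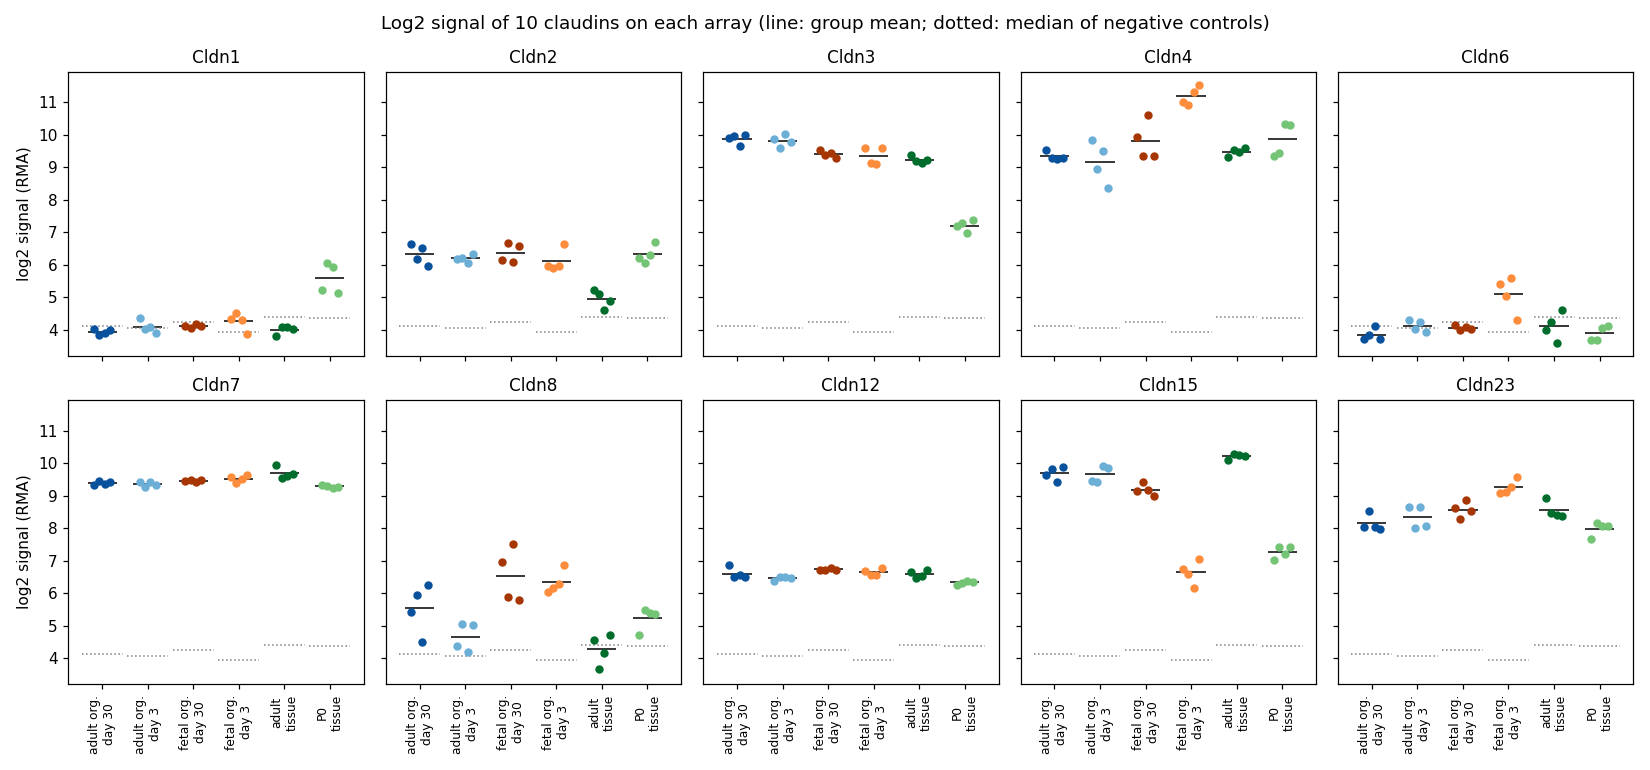
Log2 RMA signal (vertical axis) of each of the 10 claudins on each of the 4 arrays of 6 groups (horizontal axis), with the group mean as a bar and the middle value of the negative controls, averaged over the arrays of a group, as a dotted line. Cldn15 lay between 6.16 and 7.06 in fetal day 3 organoids and at 8.99 or more in the other organoids, Cldn3 was low in P0 tissue alone, and Cldn7 stayed between 9.24 and 9.94 on all 24 arrays.

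The stretch around the transcription start was read for the members from RefSeq (GRCm38.p6), as 250 bases before to 50 after each start, and it was listed for 8 of the 10 members in 11 windows. Cldn15, Cldn4 and Cldn2 are shown because the contrasts turn on them: Cldn15 and Cldn4 moved in opposite directions in fetal organoids, and Cldn2 parted organoids from adult tissue. Each is written 5′ to 3′ on the strand of its gene, with matches to the motifs searched in capitals. The Cldn15 window lies at chr5:136967619-136967918 on the plus strand, the Cldn4 window at chr5:134946885-134947184 on the minus strand and the Cldn2 window at chrX:139800558-139800857 on the plus strand.
Cldn15: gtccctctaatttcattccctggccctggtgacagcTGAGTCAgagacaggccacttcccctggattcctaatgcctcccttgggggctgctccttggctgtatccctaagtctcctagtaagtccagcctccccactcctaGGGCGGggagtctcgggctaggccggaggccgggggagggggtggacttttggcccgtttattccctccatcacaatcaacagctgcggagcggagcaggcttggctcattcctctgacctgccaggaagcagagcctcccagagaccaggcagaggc
Cldn4: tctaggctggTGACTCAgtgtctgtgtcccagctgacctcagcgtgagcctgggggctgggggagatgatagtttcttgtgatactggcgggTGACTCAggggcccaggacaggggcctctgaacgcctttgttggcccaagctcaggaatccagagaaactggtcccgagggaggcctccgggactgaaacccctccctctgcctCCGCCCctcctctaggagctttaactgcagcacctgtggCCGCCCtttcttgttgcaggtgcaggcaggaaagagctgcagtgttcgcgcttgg
Cldn2: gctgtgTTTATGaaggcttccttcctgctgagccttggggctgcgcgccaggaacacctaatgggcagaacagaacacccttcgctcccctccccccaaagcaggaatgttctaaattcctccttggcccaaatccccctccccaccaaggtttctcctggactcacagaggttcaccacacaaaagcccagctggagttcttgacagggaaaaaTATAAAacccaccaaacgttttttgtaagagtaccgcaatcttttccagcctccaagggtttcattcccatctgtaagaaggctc
The motifs were searched on both strands, and each is given with the share of all 32851 listed promoters that hold it. TGANTCA, the letters bound by AP-1, is in 7.81% of promoters and was found at 214 bases before the Cldn15 start and at 240 and 158 bases before the Cldn4 start. The GC box GGGCGG is in 35.66% of promoters and was found once for Cldn15, 108 bases before the start, and at 44 and 5 bases before the Cldn4 start. Cldn2 alone among the listed windows of the members held the TATA letters TATAAA, 35 bases before its start and in 13.62% of all promoters, and the Cdx letters TTTATG, 244 bases before its start and in 11.85% of all promoters. GC boxes were also present in windows of Cldn1, Cldn3, Cldn6, Cldn7 and Cldn12. No window of a member held AACCNGTT (letters of Grainyhead-like factors, 2.09%), AGATAA (letters of the family of GATA factors, 11.18%), CAAAGTCCA (letters of HNF4, 0.47%) or CTTTGAA (letters of Tcf and Lef factors, 5.14%), which says only that these letters are not in these windows.

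Cldn15, the pore-forming claudin of the small intestine, had the largest change of the 10 with culture of fetal organoids. It read 9.13, 9.42, 9.17 and 8.99 in fetal organoids at day 30, against 6.75, 6.59, 6.16 and 7.06 at day 3. The day 30 arrays lay above all day 3 arrays, a 5.81-fold higher mean (log2 difference 2.54 ± 0.15 SE, n = 4 each, limma adjusted p = 2.59e-10). Adult organoids read 9.62, 9.83, 9.43 and 9.87 at day 30 and 9.44, 9.43, 9.90 and 9.86 at day 3. These groups overlapped, and their difference of 0.03 ± 0.15 did not pass the test (adjusted p = 0.996). The change with culture was larger in fetal than in adult organoids by 2.51 ± 0.22 (adjusted p = 3.85e-07). Without fetal day 3 arrays 2 and 3 it was larger by 2.24 (adjusted p = 1.60e-06).

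Adult tissue read 10.11, 10.27, 10.26 and 10.21 for Cldn15, against 7.02, 7.42, 7.19 and 7.40 in P0 tissue. All adult arrays lay above all P0 arrays, a 7.74-fold higher mean (2.95 ± 0.15, adjusted p = 8.31e-13). In bulk samples such as these, fewer cells of a type and less RNA per cell cannot be told apart. With each array set to the same mean of the 11 epithelial markers, the difference was 2.21 (adjusted p = 8.24e-11). This setting moved all genes alike, by -0.74 in adult minus P0 tissue and by -0.73 in fetal day 3 organoids minus P0 tissue. The median of all genes then lay at -0.66 and at -0.59. The order of Cldn15 group means ran from adult tissue through adult organoids at day 30 and at day 3 to fetal organoids at day 30, P0 tissue and fetal organoids at day 3. Arrays of the neighbours in this order overlapped only between the adult organoid days and between P0 tissue and fetal day 3 organoids.

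By the rule used for likeness, the smallest root mean square difference between mean-centred profiles of the 6 group means over 20309 genes, Ugt2a3 (0.24), Khk (0.30) and Slc1a1 (0.31) were most like Cldn15. Ugt2a3 codes for a glucuronosyltransferase, Khk for ketohexokinase of fructose breakdown and Slc1a1 for a glutamate and aspartate transporter. The mean of Khk was 9.45 in fetal organoids at day 30 and 7.09 at day 3, and it was 10.05 in adult tissue and 8.10 in P0 tissue.

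Cldn2, the other cation and water pore and a claudin known from the infant gut and from crypts of the adult mouse, set adult tissue apart from every other group. It read 5.23, 5.11, 4.60 and 4.88 in adult tissue, against 6.22, 6.06, 6.29 and 6.71 in P0 tissue. All 4 P0 arrays exceeded the upper quartile of their controls, and 0 of the 4 adult arrays did. The adult arrays all lay below the P0 arrays, with a difference of -1.37 ± 0.19 (adjusted p = 4.5e-06), or -2.11 with arrays set to the same epithelial mean. Adult day 3 organoids read 6.17, 6.23, 6.07 and 6.33, all above adult tissue (1.24 ± 0.19, adjusted p = 8.55e-06). Among the other 5 groups the Cldn2 means lay between 6.11 and 6.38 and the arrays of neighbours in the order overlapped. The 2 pores thus moved in opposite directions between adult and P0 tissue, Cldn15 higher and Cldn2 lower.

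Cldn4, a sealing claudin, was highest in fetal organoids at day 3. It read 9.94, 9.35, 10.61 and 9.35 in fetal organoids at day 30, against 11.01, 10.93, 11.32 and 11.54 at day 3. The groups did not overlap, and the day 30 mean was 2.62-fold lower (-1.39 ± 0.29, adjusted p = 0.0015). Adult organoids at day 3 read 9.85, 8.94, 9.51 and 8.36, all below the fetal day 3 arrays (-2.04 ± 0.29, adjusted p = 1.66e-05). Leaving out fetal day 3 arrays 2 and 3 gave -2.11 for that difference (adjusted p = 0.000433) and -1.46 for the fetal culture change (adjusted p = 0.012).

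The spread of Cldn4 within groups was wide, with an SD of 0.60 in fetal day 30 and 0.66 in adult day 3 organoids. Adult organoids at day 30 read 9.55, 9.29, 9.25 and 9.30, and their difference from adult day 3 was 0.18 ± 0.29 (adjusted p = 0.967). The culture change in fetal minus that in adult organoids was -1.57 ± 0.41 (adjusted p = 0.0325). That last call was lost in 11 of 25 alternatives, with adjusted p up to 0.0848: with the fit of the organoid groups alone, without fetal day 3 arrays 2 and 3 together, and without any 1 of fetal day 3 arrays 3 and 4, fetal day 30 arrays 2 and 4, adult day 3 arrays 2 and 4, and adult day 30 arrays 1, 2 and 4. Adult tissue read 9.32, 9.54, 9.49 and 9.59 and P0 tissue 9.36, 9.46, 10.34 and 10.30, where P0 arrays 1 and 2 lay within the adult range and arrays 3 and 4 above it. That difference of -0.38 ± 0.29 did not pass the test (adjusted p = 0.337), but with arrays set to the same epithelial mean it was -1.12 (adjusted p = 0.000649). That setting moved all genes by -0.74 here, so the gained call rests on a shift shared by all genes.

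Most like Cldn4 over the 6 groups were Syt14 (root mean square difference 0.17), Sema3e (0.19) and Klhl13 (0.20). Sema3e codes for a secreted semaphorin and Syt14 for a synaptotagmin. In fetal organoids Syt14 averaged 4.48 at day 30 and 5.59 at day 3, while Sema3e averaged 3.74 and 5.06. Outside fetal day 3 cultures Syt14 averaged 3.95 to 4.70 and Sema3e 3.52 to 3.79, close to the level of the negative controls.

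Cldn3, the other sealing claudin, lies next to Cldn4 on chromosome 5 with no protein-coding gene between them, and its profile was another one. It read 9.39, 9.20, 9.15 and 9.23 in adult tissue, against 7.20, 7.29, 6.996 and 7.37 in P0 tissue. The adult arrays were all higher, by 2.03 ± 0.12 (adjusted p = 5.77e-12), or by 1.29 with arrays set to the same epithelial mean (adjusted p = 1.87e-08). Fetal organoids at day 3 read 9.61, 9.12, 9.10 and 9.59, all above P0 tissue (2.14 ± 0.12, adjusted p = 4.54e-12; 1.42 with the epithelial mean held). P0 tissue thus stood alone at the low end of Cldn3.

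Among organoids Cldn3 was higher in adult than in fetal cultures by small amounts. At day 30, adult organoids read 9.89, 9.96, 9.66 and 10.01, against 9.53, 9.38, 9.43 and 9.30 in fetal organoids. All adult arrays were higher at day 30 (0.47 ± 0.12, adjusted p = 0.0131), a call lost when arrays were set to the same epithelial mean (0.44, adjusted p = 0.072). Adult organoids at day 3 read 9.87, 9.61, 10.03 and 9.79, above fetal day 3 organoids by 0.47 ± 0.12 (adjusted p = 0.00522). The lowest of these adult arrays lay just below the highest fetal one, and without fetal day 3 arrays 2 and 3, which had the 2 lowest values, the difference was 0.23 (adjusted p = 0.215). Adult day 3 organoids were above adult tissue without overlap (0.58 ± 0.12, adjusted p = 0.000348).

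The genes most like Cldn3 were Tmprss2 (0.19), which codes for a serine protease of the epithelial surface, Cyp2c65 (0.20), a cytochrome P450, and D17H6S56E-5 (0.20). Tmprss2 averaged 8.99 in adult and 7.04 in P0 tissue and between 9.36 and 9.79 in organoids.

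Cldn1, a barrier claudin best known from skin, was above background in P0 tissue. There it exceeded the upper quartile of the controls on 2 of 4 arrays. It read 3.81, 4.07, 4.09 and 4.04 in adult tissue, against 5.24, 6.06, 5.92 and 5.13 in P0 tissue. Adult tissue was not above background, so its mean was at least 2.27-fold lower (measured difference -1.59 ± 0.16, adjusted p = 6.94e-08). P0 arrays 2 and 3 were higher than arrays 1 and 4, and without them the difference was -1.18 (adjusted p = 2.03e-06). Fetal day 3 organoids read 4.34, 4.53, 4.31 and 3.88, all below P0 tissue (-1.32 ± 0.16, adjusted p = 1.11e-06; -2.05 with the epithelial mean held). In P0 tissue the mesenchyme and endothelium markers were also higher than in adult tissue. So were 3 of 5 mesothelium markers and 3 of 6 markers of enteric neurons and glia. The cells that hold Cldn1 in P0 tissue therefore cannot be told apart from these data.

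Cldn8, known as a sodium barrier of the distal colon and the kidney collecting duct, was higher in fetal than in adult organoids at day 3. Adult organoids read 4.37, 5.04, 4.17 and 5.02 at day 3, against 6.04, 6.16, 6.29 and 6.86 in fetal organoids. The groups did not overlap (-1.69 ± 0.36, adjusted p = 0.00135). All 4 fetal arrays lay above the upper quartile of their controls, and 0 of the 4 adult arrays did. At day 30 adult organoids read 5.42, 5.93, 4.50 and 6.25, against 6.96, 5.89, 7.50 and 5.79 in fetal organoids. These arrays overlapped, and the difference of -1.01 ± 0.36 did not pass the test (adjusted p = 0.0922), although it did without fetal day 30 array 4 (-1.26, adjusted p = 0.0358) or adult day 30 array 4 (-1.25, adjusted p = 0.0466). The adult culture change of 0.88 ± 0.36 was not called either (adjusted p = 0.497).

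In whole tissue Cldn8 read 4.55, 3.67, 4.15 and 4.71 in adults and 4.71, 5.47, 5.39 and 5.34 at P0. In neither tissue did an array lie above the upper quartile of its controls. The ranges came close at P0 array 1 without overlapping, and the difference of -0.96 ± 0.36 missed the threshold (adjusted p = 0.0535). It passed in 7 of 18 alternatives, with adjusted p from 0.000131 to 0.308 over all of them: with the filter on low values, the fit of the 2 tissue groups alone, both centrings and array weights, and without P0 array 1 (-1.13) or adult array 4 (-1.11). Fetal day 3 organoids exceeded P0 tissue by 1.11 ± 0.36 (adjusted p = 0.0176), a call lost without fetal day 3 array 4 (0.93), without P0 array 1 (0.93), without P0 arrays 1 and 4 (0.91) and with the epithelial mean held (0.38). The genes nearest to Cldn8 in profile were Mir200b (0.33), whose product holds down Zeb factors in epithelia, Chst11 (0.35), a chondroitin sulfotransferase, and Zfp618 (0.40), each farther from it than the nearest genes of Cldn3, Cldn4 and Cldn15 were from those.

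Cldn6, a claudin of embryonic epithelia, was above background in fetal day 3 organoids and low elsewhere. In fetal day 3 organoids it exceeded the upper quartile of the controls on 1 of 4 arrays. It read 4.16, 3.99, 4.08 and 4.02 in fetal organoids at day 30, against 5.42, 5.03, 5.60 and 4.32 at day 3. The groups did not overlap, although day 3 array 4 came close to the day 30 range. Fetal day 30 organoids were not above background, so their mean was at least 1.81-fold lower (measured -1.03 ± 0.21, adjusted p = 0.00146). Without fetal day 3 arrays 2 and 3 the measured difference was -0.81 (adjusted p = 0.0402). Array 4, with the lowest Cldn6 of the group, also had the lowest mean of the 8 stomach genes, 4.88, and whether these move together was not tested.

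Adult organoids at day 3 read 4.30, 4.02, 4.23 and 3.94 for Cldn6, below the fetal day 3 arrays (-0.97 ± 0.21, adjusted p = 0.00148). Fetal day 3 organoids were at least 1.67-fold above P0 tissue, which was not above background (measured 1.20 ± 0.21, adjusted p = 9.52e-05), a call lost with the epithelial mean held (0.47, adjusted p = 0.0504). The culture change of Cldn6 in fetal minus that in adult organoids was -0.76 ± 0.30 and did not pass the test (adjusted p = 0.224). It did without fetal day 3 array 4 (-1.02, adjusted p = 0.0173).

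Cldn23, a claudin of differentiated surface epithelium, was, as Cldn4 was, lower in fetal organoids at day 30 and in adult organoids at day 3 than in fetal organoids at day 3, while in adult against P0 tissue it was called higher and Cldn4 was not called. It read 8.62, 8.27, 8.85 and 8.54 in fetal organoids at day 30, against 9.08, 9.12, 9.27 and 9.56 at day 3. All day 30 arrays were lower (-0.69 ± 0.17, adjusted p = 0.0075). Adult organoids at day 3 read 8.66, 7.99, 8.65 and 8.06, also all below fetal day 3 organoids (-0.92 ± 0.17, adjusted p = 0.000397). The fetal and the adult culture change differed by -0.49 ± 0.25, which did not pass the test (adjusted p = 0.385).

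Adult tissue read 8.92, 8.48, 8.40 and 8.39 for Cldn23, against 7.66, 8.15, 8.06 and 8.07 in P0 tissue. The groups did not overlap (0.56 ± 0.17, adjusted p = 0.018). The call was lost under median centring (0.49), without P0 array 1 (0.45), without adult array 1 (0.44) and without P0 arrays 1 and 4 (0.44), and with the epithelial mean held the sign turned (-0.18, adjusted p = 0.28). Fetal day 3 organoids exceeded P0 tissue by 1.27 ± 0.17 (adjusted p = 4.2e-06), or by 0.55 with the epithelial mean held (adjusted p = 0.00258).

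Cldn7 and Cldn12 moved least. Cldn7, whose loss disrupts the mouse gut lining, read 9.94, 9.53, 9.61 and 9.66 in adult tissue, against 9.33, 9.30, 9.24 and 9.28 in P0 tissue. Adult arrays were all higher (0.40 ± 0.08, adjusted p = 0.000283), but with the epithelial mean held they were lower (-0.34, adjusted p = 0.00137). Adult day 3 organoids, at 9.43, 9.27, 9.42 and 9.34, lay below adult tissue (-0.32 ± 0.08, adjusted p = 0.00142). Fetal day 3 organoids, at 9.56, 9.38, 9.52 and 9.64, exceeded P0 tissue by 0.24 ± 0.08 (adjusted p = 0.0147), a call lost under median centring, without fetal day 3 array 4 and without either pair of P0 arrays, and turned to -0.49 with the epithelial mean held. That value lay above the median of all genes on the same scale, -0.59.

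Cldn12, which lacks the usual end for binding scaffold proteins and is known with Cldn2 from calcium absorption, read 6.66, 6.47, 6.52 and 6.72 in adult tissue, against 6.26, 6.32, 6.37 and 6.36 in P0 tissue. Adult arrays were higher by 0.27 ± 0.08 (adjusted p = 0.0162). Leaving out P0 array 1, adult array 4 or either pair of P0 arrays ended that call, as did centring on the array median, and the epithelial mean turned it to -0.47. Fetal day 3 organoids, at 6.67, 6.56, 6.56 and 6.78, exceeded P0 tissue by 0.31 ± 0.08 (adjusted p = 0.00333), but with the epithelial mean held they were lower (-0.41, where the median of all genes was -0.59). In organoids neither Cldn7 nor Cldn12 was called in any comparison of age or culture day.

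**Figure D2:**
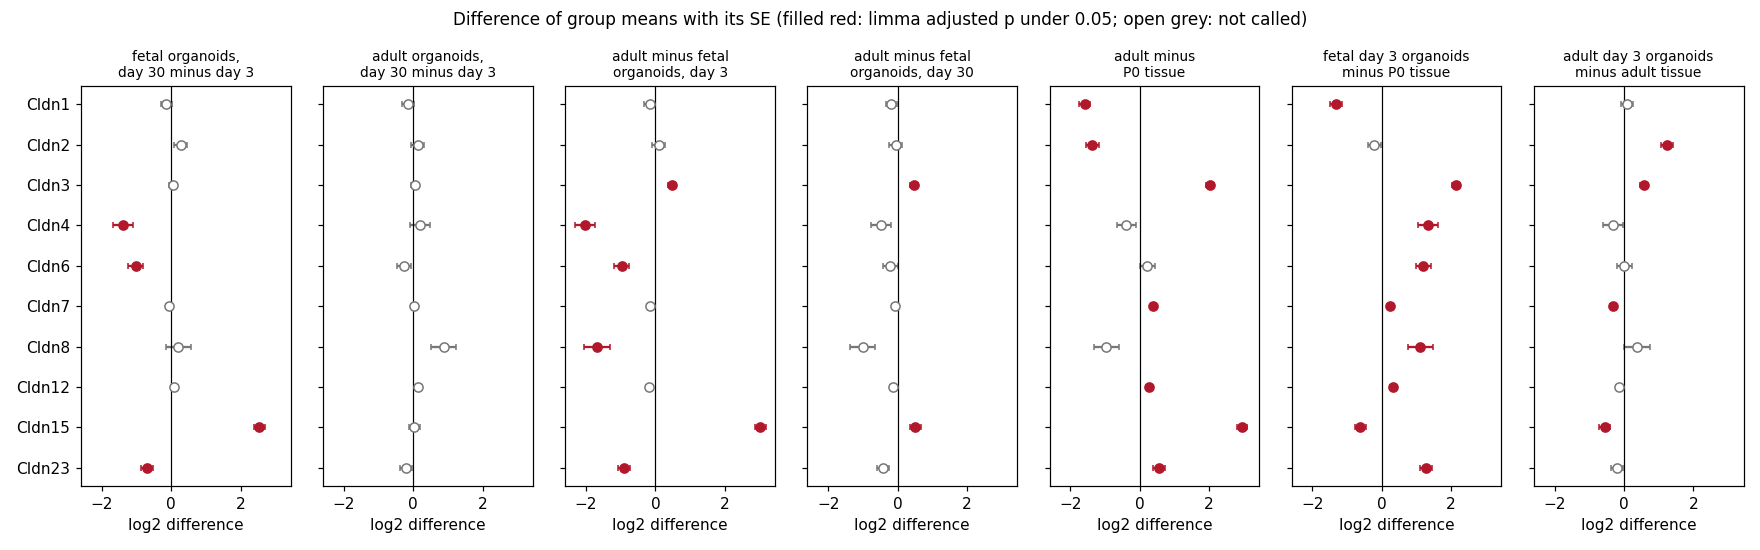
Log2 difference of group means (horizontal axis) with its SE for each of the 10 claudins (vertical axis) in 7 comparisons, 4 arrays a group. Filled red points passed limma's adjusted p of 0.05 and open grey points did not: Cldn15 was higher by 2.54 in fetal organoids at day 30 and by 2.95 in adult tissue, and no claudin passed in adult organoids between days.

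The comparisons share arrays, and fetal day 3 organoids enter 4 of the 8, so that their counts are given side by side and not as separate evidence. Between day 30 and day 3 of fetal culture, 4 of the 10 claudins were called, 1 higher (Cldn15) and 3 lower (Cldn4, Cldn6 and Cldn23), where 15.7% of all genes were called, 6.81% higher and 8.85% lower. In these 4 the arrays of the groups did not overlap, as in 15.3% of all genes. The median difference of the claudins was -0.01, and that of all genes -0.03. Of all calls 43.5% were higher, or 65.4% after centring each array on its median and 69.3% with the epithelial mean held. Of 27 other tight junction genes, 10 were called and each of these was lower at day 30 (list median -0.21). With arrays centred on their median 8 were lower, and with the epithelial mean held 7, and 0 were higher under either. Ildr1, which codes for a protein of junctions where 3 cells meet, fell by 0.91 ± 0.18 (adjusted p = 0.000942), the polarity gene Pard6b by 0.83 ± 0.14 (adjusted p = 0.000204), Amotl1, an angiomotin, by 0.82 ± 0.10 (adjusted p = 3.03e-06) and Cgnl1, or paracingulin, by 0.67 ± 0.14 (adjusted p = 0.00161).

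Of 17 other claudins 3 were called, all lower at day 30. Cldn18, the claudin of stomach and lung, read 4.78, 4.93, 5.36 and 4.84 in fetal organoids at day 30, against 7.66, 10.61, 10.44 and 5.87 at day 3. The day 3 arrays differed from each other by more than 4 log2 units, with arrays 2 and 3 highest, as in the mean of the 8 stomach genes, of which 6 were called lower at day 30. Cldn5, the claudin of endothelium, fell by 0.59 ± 0.14 (adjusted p = 0.00391) and Cldn9, which lies next to Cldn6 on chromosome 17, by 0.58 ± 0.13 (adjusted p = 0.00373). Of 9 endothelial markers 6 were lower at day 30 on the deposited scale, or 3 with the epithelial mean held, and their array means were 4.43 to 4.51 at day 30 against 4.87 to 5.09 at day 3. Their part in the Cldn5 difference was not tested.

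Other markers also differed between these groups. Of 9 mesenchyme and smooth muscle markers 8 were lower at day 30, with array means of 5.02 to 5.34 against 5.85 to 6.71 at day 3. Of 7 leukocyte markers 4 were lower, with means of 4.52 to 4.65 against 5.15 to 5.28. The day 30 means lay below the upper quartile of the controls, and Ptprc was not above background on either day. Of 7 crypt stem cell markers 6 were higher, with means of 8.01 to 8.78 against 6.84 to 7.72. The epithelial markers were spread more evenly, with 2 of 11 higher and 1 lower. Within fetal day 30 organoids, array 3 had the highest Cldn4, Cldn8 and Cldn23 and also a Tff2 level of 12.42 and a stomach mean of 5.69, against 5.59 to 8.31 and 4.59 to 4.87 on the other 3 arrays. Its mean of 5 mesothelium markers was 6.80, against 5.13, 5.28 and 5.87 on arrays 1, 2 and 4. The part of these markers in the claudin differences was not tested. Without fetal day 3 arrays 2 and 3 the 4 claudins were called too, while the arrays left in had mesenchyme means of 5.85 and 6.16 and stomach means of 6.40 and 4.88.

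**Figure D3:**
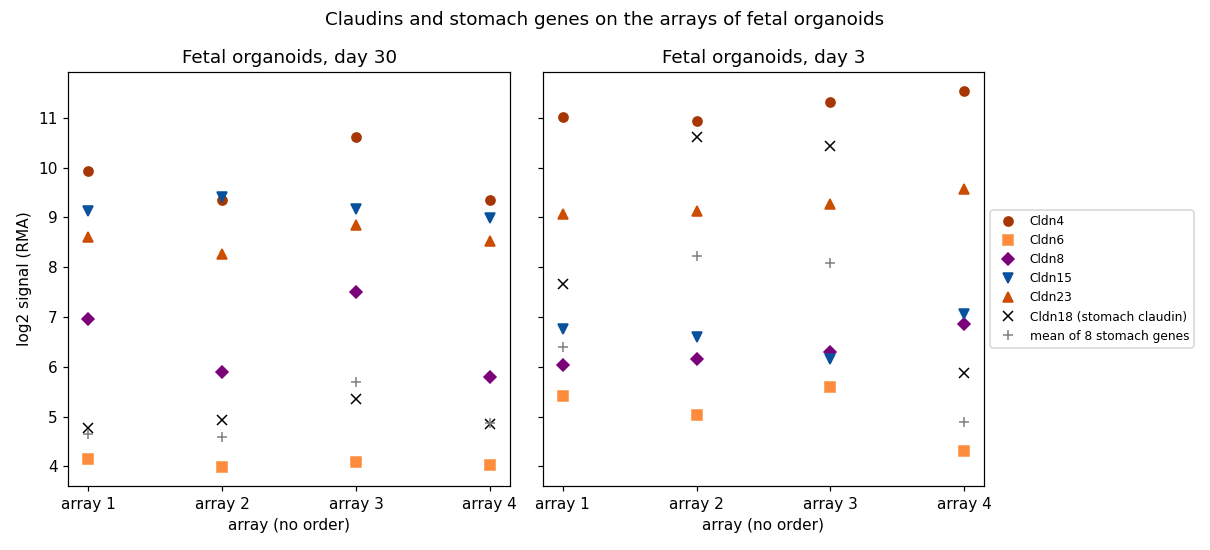
Log2 RMA signal (vertical axis) of 5 claudins, of the stomach claudin Cldn18 and of the mean of 8 stomach genes on each array (horizontal axis, no order) of fetal organoids at day 30 (left) and at day 3 (right). Cldn18 ran between 5.87 and 10.61 at day 3, while Cldn4 stayed between 10.93 and 11.54 and Cldn15 between 6.16 and 7.06 on the same arrays.

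In adult organoids, limma called 0 of the 10 claudins between day 30 and day 3, where it called 3 genes in all (0.00995%). At an unadjusted p under 0.05, Cldn8 alone of the 10 would pass, as would 2553 genes in all. For the culture change in fetal minus that in adult organoids, 2 of 10 were called, Cldn15 higher and Cldn4 lower, against 3.03% of all genes (1.03% higher, 2.01% lower). Of all calls in that contrast 33.8% were higher, or 44.8% and 50.9% under the median and epithelial centrings. Amotl1 (-0.61 ± 0.14, adjusted p = 0.0125) and Crb3, a polarity gene of the apical membrane (-0.34 ± 0.09, adjusted p = 0.0472), were the 2 called of the 27 other tight junction genes, of which 1 was called with median centring and 0 with the epithelial mean held. Of the 17 other claudins Cldn18 was called (-3.35 ± 0.86, adjusted p = 0.0325).

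At day 3, 6 of 10 claudins were called between adult and fetal organoids, with Cldn15 and Cldn3 higher and Cldn4, Cldn8, Cldn6 and Cldn23 lower in adult organoids. Of all genes 24.6% were called, 14.6% higher and 10.1% lower, and 24.1% had groups that did not overlap, as had 6 claudins (the called ones other than Cldn3, and Cldn12). The median difference was -0.18 over the claudins and -0.005 over all genes. The share of all calls that were higher was 59.2%, or 71.0% with the epithelial mean held. Of the 27 other tight junction genes 15 were called, 14 of them lower in adult organoids, or 11 and 10 lower under the median and epithelial centrings. Ildr1 differed by -1.30 ± 0.18 (adjusted p = 1.3e-05), the scaffold gene Tjp1, or ZO-1, by -0.95 ± 0.14 (adjusted p = 2.51e-05), Amotl1 by -0.95 ± 0.10 (adjusted p = 2.97e-07) and Pard6b by -0.81 ± 0.14 (adjusted p = 0.00015). Ybx3, a DNA- and RNA-binding partner of ZO-1, was the 1 that was higher (0.54). Mesenchyme markers were lower in adult organoids for 7 of 9, endothelial markers for 6 of 9, leukocyte markers for 3 of 7 and stomach genes for 5 of 8. Adult array 1 had a mesenchyme mean of 6.09, within the fetal range of 5.85 to 6.71, against 5.05 to 5.10 on the other adult arrays. Cldn4, Cldn6 and, narrowly, Cldn23 were highest of the adult day 3 group on that array, and Cldn8 was not. Of the stomach genes, 1 was called higher in adult organoids. Crypt stem cell markers were higher for 6 of 7 (list median 1.43) and enterocyte markers for 3 of 9. These markers were read on the same arrays, and their part in the claudin differences was not tested.

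At day 30, 2 of 10 claudins were called between adult and fetal organoids, Cldn15 and Cldn3, both higher in adult organoids, where 8.99% of all genes were called, 6.84% higher and 2.15% lower. Groups did not overlap for these 2 and for Cldn1, at background in both, and for 12.3% of all genes. Cldn15 was higher by 0.51 ± 0.15 without overlap (adjusted p = 0.0394), against 3.02 ± 0.15 at day 3 (adjusted p = 9.77e-12). The day 30 call of Cldn15 was lost with either centring and without any 1 of fetal arrays 1, 3 and 4 or adult arrays 1, 2 and 4 (0.45 to 0.53, adjusted p 0.06 to 0.132). Cldn4 differed by -0.47 ± 0.29 (adjusted p = 0.413) and Cldn23 by -0.43 ± 0.17 (adjusted p = 0.148), neither called. Of the other tight junction genes 4 of 27 were called, Ybx3 higher (0.46 ± 0.12, adjusted p = 0.0135) and Prkci, the atypical protein kinase C of cell polarity, Amotl1 and Crb3 lower (-0.40, -0.34 and -0.27). Cldn18 differed by 0.002 and Cldn5 by -0.025, neither called.

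Between adult and P0 tissue, 7 of 10 claudins were called, Cldn15, Cldn3, Cldn23, Cldn7 and Cldn12 higher and Cldn1 and Cldn2 lower in adults. With median centring 3 were higher and 3 lower, and with the epithelial mean held 2 were higher and 7 lower. With that mean held, limma called 27341 of all 30142 genes lower and 692 higher. On the deposited scale 27.3% of all genes were called, 15% higher and 12.3% lower. There 30.7% of all genes did not overlap, as was so for 8 of the 10 claudins, the 7 called ones and Cldn8. The median difference was 0.24 over the claudins and 0.08 over all genes. Among all calls 55.0% were higher, or 39.9% after median centring and 2.5% with the epithelial mean held, which moved the median of all genes by -0.74. On that scale Cldn15 and Cldn3 alone of the 5 were still higher in adult tissue. Cldn23 (-0.18), Cldn7 (-0.34) and Cldn12 (-0.47) turned negative, yet lay above the median of all genes, -0.66. Of the epithelial markers 9 of 11 were higher in adult tissue, and 8 of 9 endothelial and 8 of 9 mesenchyme markers were lower. Of 7 leukocyte markers 5 were higher and 1 lower.

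Of the 27 other junction genes, 10 were higher and 4 lower in adult tissue on the deposited scale. With median centring 8 were higher and 5 lower. With the epithelial mean held 0 were higher and 22 lower, where 27341 of all 30142 genes were lower too. Their direction in tissue thus rested on the scaling, which shifts all genes alike. F11r, or JAM-A, was higher by 0.93 ± 0.14 (adjusted p = 1.78e-05), the scaffold gene Tjp3 by 0.91 ± 0.11 (adjusted p = 9.94e-07), the exchange factor Arhgef2 by 0.88 ± 0.09 (adjusted p = 1.03e-07) and the tetraspan gene Marveld3 by 0.80 ± 0.09 (adjusted p = 1.25e-07). Of the other 17 claudins 4 were higher and 2 lower, or 0 higher and 15 lower with the epithelial mean held. Cldn13 and Cldn16, 2 of the 4, were not above background in either tissue. Cldn5 read 5.54, 5.58, 5.56 and 5.99 in adult tissue, against 7.42, 7.26, 7.65 and 7.10 in P0 tissue, and fell by 1.69 ± 0.14 (adjusted p = 1.41e-09). The endothelial marker means were 5.51 to 5.85 in adult and 6.64 to 7.07 in P0 tissue, and 8 of 9 mesenchyme markers were lower in adults too. The part of these markers in the Cldn5 difference was not tested.

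**Figure D4:**
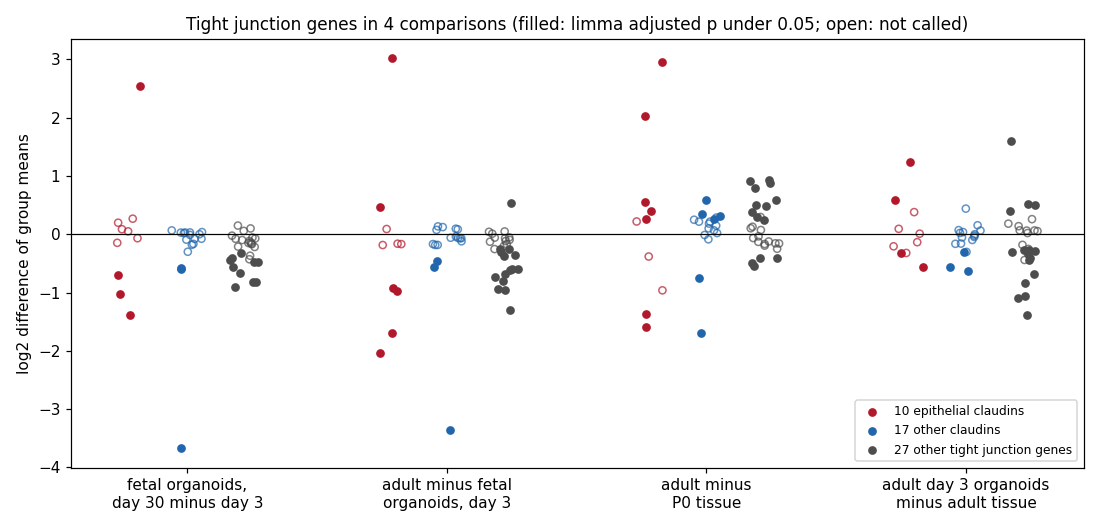
Log2 difference of group means (vertical axis) for each of the 10 epithelial claudins, 17 other claudins and 27 other tight junction genes in 4 comparisons (horizontal axis; points are spread sideways at random). Filled points passed limma's adjusted p of 0.05: the 10 called other tight junction genes were all lower in fetal organoids at day 30, while in tissue 10 were higher and 4 lower in adults on the deposited scale, against 0 higher and 22 lower with the epithelial mean held. With that mean held, 27341 of all 30142 genes were lower in adult tissue.

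Against whole tissue, fetal day 3 organoids had 9 of 10 claudins called relative to P0 tissue, 7 higher and 2 lower (Cldn1 and Cldn15), where 44.5% of all genes were called, 30.6% higher and 13.9% lower. Groups did not overlap for 8 of the 10, those called other than Cldn15, and for 39.7% of all genes. The median difference was 0.71 over the claudins and 0.14 over all genes. E19 and P0 differ in age as well as in the cells present, which cannot be told apart. Cldn4, with the second largest rise after Cldn3, differed by 1.34 ± 0.29 (adjusted p = 0.000704), or by 0.61 with the epithelial mean held. Cldn15 was lower in the organoids (-0.62 ± 0.15, adjusted p = 0.00261), with overlapping arrays, and without fetal day 3 arrays 2 and 3 the value was -0.35 (adjusted p = 0.0818), while with the epithelial mean held it was -1.35. Cldn2 differed by -0.21 ± 0.19 (adjusted p = 0.354), but by -0.94 with the epithelial mean held (adjusted p = 4.62e-05). Holding that mean moved all genes by -0.73 and their median to -0.59.

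Centring decided how many members were higher in that contrast: with the epithelial mean held 3 were higher and 5 lower, and the share of all calls that were higher was 2.6%, against 68.8% as deposited and 54.3% with median centring. With the epithelial mean held, limma called 25438 of all 30142 genes lower and 677 higher. Of the 27 other tight junction genes 16 were higher and 5 lower in the fetal organoids, or 2 higher and 15 lower with the epithelial mean held. Ildr1 (1.68 ± 0.18, adjusted p = 1.4e-07) and Ybx3 (1.55 ± 0.12, adjusted p = 5.91e-10) were higher, and Jam2, an endothelial junction molecule (-1.52 ± 0.14, adjusted p = 1.48e-08), and the myosin kinase gene Mylk (-1.38 ± 0.11, adjusted p = 8.04e-10) lower. Jam2 averaged 3.92 in the organoids, close to the median of the controls. All 9 mesenchyme and all 9 endothelial markers were lower in the organoids. So were 7 of 9 enterocyte markers (list median -1.18), while 1 was higher. All 8 stomach genes (list median 3.26) and 6 of 7 crypt stem cell markers were higher. With the epithelial mean held, 5 stomach genes and 3 crypt markers were higher, and 1 of each list was lower. The part of these markers in the differences of Cldn15 and Cldn4 was not tested.

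Adult day 3 organoids against adult tissue had 4 of 10 claudins called, Cldn2 and Cldn3 higher and Cldn15 and Cldn7 lower, where 35.6% of all genes were called, 22.1% higher and 13.5% lower. In these 4, as in 35.3% of all genes, the groups did not overlap. Cldn15 was lower in the organoids (-0.55 ± 0.15, adjusted p = 0.00613). All 7 crypt stem cell markers were higher in the organoids and 6 of 9 enterocyte markers lower, and all 9 endothelial, all 9 mesenchyme and 5 of 7 leukocyte markers were lower. The part of these markers in the claudin differences and in those of the junction genes named next was not tested. Of the 27 other tight junction genes 4 were higher and 12 lower, or 4 higher and 9 or 8 lower under the median and epithelial centrings. Ybx3 was higher (1.60 ± 0.12, adjusted p = 1.8e-10), and Mylk (-1.39 ± 0.11, adjusted p = 3.69e-10), Jam2 (-1.10 ± 0.14, adjusted p = 8.3e-07) and Arhgef2 (-1.06 ± 0.09, adjusted p = 3.3e-09) were lower. Jam2, with a mean of 3.79, was not above background in the organoids, so the size of its difference depends on that floor.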

How the data were processed

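Total RNA of the organoids and tissues was hybridised to 24 arrays, 4 in each of 6 groups. Each deposited value is a log2 signal, derived by the authors with RMA in Affymetrix Expression Console, per the submitters' processing notes. RMA corrects background, normalizes quantiles between arrays and summarises probes. The genome build is, like tool versions and the set of arrays normalized jointly, not given in the sources used here. Per the labels' protocols, RNA was extracted with Trizol and biotinylated.

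Of 72688 probe sets, 32750 clusters had a symbol in the platform annotation, and 30604 of them named 1 gene. Symbols were updated through RefSeq for 827. Where a gene had several clusters, which was so for 355 genes, the one with the highest mean was used. A search for arrays deposited more than once found none (highest correlation between arrays 0.996).

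One limma fit (limma 3.58.1, R 4.3.3) held all 24 arrays and 6 group means (18 residual and 4.25 prior degrees of freedom). The tests were two-sided, with Benjamini-Hochberg adjustment over 30142 genes in each of 8 comparisons and calls at an adjusted p under 0.05. The script was tested on simulated data. Named genes are the members, up to 4 called genes of each junction list with the largest difference, Cldn5 and Cldn18, and the 3 genes most like a member whose group means span at least 2. An "at least" fold sets the brighter mean against the higher of the background and the dim gene's own level. The members, lists and alternatives were chosen with earlier results of these data known. The number of arrays limits the precision. Alternatives were the mean of a gene's clusters, a filter on low values (16664 genes and 9 members kept, Cldn6 dropped), a trended and robust prior, only the groups compared, arrays centred on their median or on the 11 epithelial markers, a replicate block, array weights, and arrays left out. Same-numbered arrays of compared groups correlated between -0.313 and 0.290 in their deviations, and the main fit held no pairing. The labels do not say whether they share an animal or culture, and these correlations cannot decide it. Annotation and figures used Python 3.11.15, with pandas 2.3.3, numpy 2.4.6 and matplotlib 3.10.9.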

Additional observations from a re-analysis of the deposited data

Results flagged for a closer look

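In 6 of the 60 sets of 4 arrays, 10 claudins in 6 groups, 1 array stood far from the other 3. Its gap to the nearest array as a share of the range exceeded the critical value of Dixon's test. Chance alone flags about 1 in 20 such sets. Cldn2 was highest on fetal day 3 array 4 (6.635, gap 0.915 of the range), and Cldn4 on adult day 30 array 1 (9.551, gap 0.843). Cldn8 was lowest on P0 array 1 (4.715, gap 0.831). Cldn12 was highest on fetal day 30 array 3 (6.787, gap 0.951) and on adult day 30 array 1 (6.874, gap 0.856), and Cldn23 on adult day 30 array 2 (8.515, gap 0.857).

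The change from day 3 to day 30 differed between fetal and adult organoids for Cldn15, by 2.510, and for Cldn4, by -1.571, by limma's test of the difference itself.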

How the results depend on the processing

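Of 80 claudin differences, 36 were called under no setting and had no unadjusted limma p under 0.05. The other 44, some of which no setting called either, gave 788 values under the alternatives. Of these, 730 kept direction and call, 40 lost and 12 gained a call, and 6 changed sign. All 6 came from setting arrays to the same epithelial mean: adult minus P0 tissue gave -0.519 for Cldn6 (not above background in either), -0.341 for Cldn7, -0.473 for Cldn12 and -0.177 for Cldn23, and fetal day 3 organoids minus P0 tissue gave -0.490 for Cldn7 and -0.412 for Cldn12. By construction it lowers all genes where epithelial markers are high.

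For the culture change between fetal and adult organoids, 1 claudin in place of 2 was called with only the groups compared and without fetal day 3 arrays 2 and 3, and 1 to 2 when single arrays were left out. Between adult and fetal organoids at day 30, 1 was called with arrays centred on their median, 0 with the epithelial mean held (where 1509 genes were called by limma) and 1 to 2 without single arrays. For other comparisons the count stayed within 1.5 times.

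Counts over all genes moved more. For fetal organoids, 4721 became 2479 with only the groups compared and 3039 without fetal day 3 arrays 2 and 3. For adult organoids, 3 became 7 with the filter, 1 with only the groups compared, 5 with median centring and 369 with array weights. Without single arrays 3 to 190 were called, most without adult day 30 array 3. For the difference of culture changes, 914 became 587 with the epithelial mean held, 1393 with weights and 554 without fetal day 3 arrays 2 and 3. At day 30, 2711 became 1576 with only the groups compared and 1779 without adult array 1. In tissue, 8243 became 28033 with the epithelial mean held and 4973 without P0 arrays 2 and 3, and for fetal organoids against P0 tissue 13409 became 26115 and 8848. Fewer arrays enter where arrays are left out, and the cause was not tested otherwise.

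Whether same-numbered samples were paired is not labelled. With a replicate block, 4, 0, 2, 6, 2, 7, 9 and 4 claudins were called in the 8 comparisons, the counts given above.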
